A study of Mus musculus with 8 samples.

Results

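The genes described here are 32 genes of glycolysis and of the transcriptional response to low oxygen, taken by name from the 34763 genes and unnamed transcripts that the array design names. They are 14 enzymes that carry glucose to pyruvate, 4 genes that set the fate of pyruvate and lactate, 2 enzymes that make and break down fructose bisphosphate regulators of phosphofructokinase, 5 genes of the hypoxia-inducible factor (HIF) system and 7 targets of that system outside glycolysis. All 32 had at least 1 probe on the array, 58 probes in all, and each gene was read from its brightest probe that passed the filter on dim signals. RNA of whole kidneys (labelled as total kidney) of CD-1 mice, an outbred stock, was hybridised to 1-colour Agilent arrays. The control group (CTL, 4 arrays) received physiological serum and the other group (TAC, 4 arrays) received tacrolimus, a calcineurin inhibitor given after transplantation, at 1 mg/kg per day over 28 days. No genetic modification is named for either group, and no age or sex is stated in the sources used here. The comparison asks which kidney transcripts differ under the drug.

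Glycolysis splits glucose into pyruvate and yields ATP without oxygen. In the kidney its enzymes are background equipment of all cells, and the distal segments of the nephron and the medulla rely on it more than the proximal tubule, which burns fatty acids and makes glucose. When oxygen is scarce, the alpha subunits of HIF escape hydroxylation by the Egln prolyl hydroxylases and degradation through Vhl, and they raise transcription of most glycolytic enzymes, of Vegfa, Car9 and Bnip3, and, in interstitial cells of the kidney, of erythropoietin. HIF protein is regulated mainly by its stability, which RNA levels do not show.

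HIF binds DNA at a short core, ACGTG or GCGTG. The table of promoters from RefSeq (build GRCm38.p6), which spans 250 bases before to 50 bases after each start, held 44 promoters for 30 of the 32 genes. Epas1 and Ndrg1 had no entry. On either strand, 33 of these 44 promoters (75%) held at least 1 core, against 43.8% of all 32851 promoters in the table. Counted by gene, 26 of 30 (86.7%) held one in some promoter, against 46.7% of all genes in the table. The ACGTG form alone was present in 18 of 30 (60%), against 21.8% of all genes. The windows also differ in composition, with a median GC content of 61.7% in the 44 promoters and 52.7% in all promoters. Both forms of the core contain the pair CG, and the median count of that pair was 20 in the 44 promoters and 7 in all promoters. The part of composition in these shares was not tested. Printed here are the promoters with a core of the genes whose arrays differed at an unadjusted p under 0.05 (Hk2, Pfkfb3 and Pgam1), followed by Pgk1 and Ldha, enzymes of the same pathway picked after their values were seen because they hold several cores and did not reach that p. Sequences run in the direction of the gene, and capitals mark the cores as they read on that strand, so that CACGT and CACGC are cores on the opposite strand and CACGTG holds a core on each.
Hk2, chr6:82774405-82774704, minus strand: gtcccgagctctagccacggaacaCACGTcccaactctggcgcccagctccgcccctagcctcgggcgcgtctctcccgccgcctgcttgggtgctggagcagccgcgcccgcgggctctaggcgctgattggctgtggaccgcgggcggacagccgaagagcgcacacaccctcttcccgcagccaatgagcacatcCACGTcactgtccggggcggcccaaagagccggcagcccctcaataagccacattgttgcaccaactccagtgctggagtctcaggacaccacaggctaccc
Pfkfb3 promoter 1, chr2:11502041-11502340, minus strand: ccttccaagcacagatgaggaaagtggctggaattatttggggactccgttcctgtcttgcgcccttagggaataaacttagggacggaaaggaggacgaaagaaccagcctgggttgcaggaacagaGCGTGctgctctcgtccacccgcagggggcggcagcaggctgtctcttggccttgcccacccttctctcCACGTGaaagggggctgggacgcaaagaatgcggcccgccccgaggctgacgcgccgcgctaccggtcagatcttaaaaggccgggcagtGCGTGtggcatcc
Pfkfb3 promoter 2, chr2:11553880-11554179, minus strand: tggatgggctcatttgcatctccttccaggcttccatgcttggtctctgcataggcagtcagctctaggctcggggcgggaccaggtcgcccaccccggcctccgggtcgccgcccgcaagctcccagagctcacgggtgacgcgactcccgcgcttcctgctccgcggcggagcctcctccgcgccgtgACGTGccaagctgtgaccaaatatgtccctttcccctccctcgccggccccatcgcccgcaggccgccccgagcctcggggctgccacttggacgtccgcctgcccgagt
Pgam1, chr19:41911621-41911920, plus strand: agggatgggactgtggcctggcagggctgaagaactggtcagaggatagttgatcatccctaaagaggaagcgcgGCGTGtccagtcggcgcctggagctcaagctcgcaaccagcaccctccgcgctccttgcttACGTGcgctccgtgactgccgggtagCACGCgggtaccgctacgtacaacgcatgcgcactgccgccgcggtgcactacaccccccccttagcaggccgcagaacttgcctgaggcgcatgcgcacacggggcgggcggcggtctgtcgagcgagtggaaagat
Pgk1, chrX:106186850-106187149, plus strand: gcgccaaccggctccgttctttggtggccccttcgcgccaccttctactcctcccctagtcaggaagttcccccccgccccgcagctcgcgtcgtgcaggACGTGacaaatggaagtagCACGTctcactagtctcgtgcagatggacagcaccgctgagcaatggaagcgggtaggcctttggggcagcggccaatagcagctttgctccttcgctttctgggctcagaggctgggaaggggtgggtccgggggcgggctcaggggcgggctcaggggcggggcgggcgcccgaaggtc
Ldha promoter 1, chr7:46845554-46845853, plus strand: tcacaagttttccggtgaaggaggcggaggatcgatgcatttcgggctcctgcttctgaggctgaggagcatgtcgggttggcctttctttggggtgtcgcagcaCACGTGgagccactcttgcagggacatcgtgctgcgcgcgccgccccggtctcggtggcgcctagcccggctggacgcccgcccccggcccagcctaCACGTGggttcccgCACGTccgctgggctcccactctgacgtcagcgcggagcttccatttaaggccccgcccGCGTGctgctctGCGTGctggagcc
With the start of transcription counted as 0, the first bases of the cores lie at -226 and -52 in Hk2, at -122, -53, -52 and 37 in the first Pfkfb3 promoter, at -60 in the second, at -175, -114 and -88 in Pgam1, and at -150 and -131 in Pgk1. The Ldha window holds 7 cores, more than that of any of the others printed. The 2 Pklr promoters hold none. A match is a stretch of letters, not evidence that a factor binds there.

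Spots well above background made up 64.0% to 69.8% of each array, no spot reached saturation, and each array's 75th percentile of processed intensity lay from 674 to 1061 units. Levels are log2 signals minus the array's own 75th percentile, and differences are TAC minus CTL in log2 units. The labels number the replicates without naming animals, so that each p-value rests on the spread among these samples, which may be technical, and 4 arrays per group limit the precision. All 8 arrays lie on 1 slide, controls in row 1 and tacrolimus in row 2: row and treatment cannot be told apart. Kidney markers fitted the label: all 8 proximal tubule markers and all 8 markers of thick limb, distal nephron and collecting duct were tested, with Aqp1 lower and Calb1 higher by the unadjusted p. In whole tissue, fewer cells of a type and less RNA per cell cannot be told apart.

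Of the 32 genes, 31 were measured well enough to be tested. Epo, the gene of erythropoietin, was not well above background on either group's arrays, at -8.07 to -6.04, and gives no difference. None of the 31 passed an adjusted p under 0.05 in limma, against 57 of the 25127 genes and transcripts tested (0.227%). Of these 25127, here called genes, 17067 were tested under a RefSeq symbol. At an unadjusted p under 0.05, 3 genes were higher under tacrolimus (Hk2, Pfkfb3 and Pklr), where 7.04% of all genes tested were, and 1 was lower (Pgam1), where 8.42% were. The tacrolimus arrays lay entirely above the controls for 2 genes, Hk2 and Pfkfb3 (4.35% of all genes), and entirely below for none (5.75%). None of these counts stands far from the share over all genes. The median difference of the 31 genes was -0.09, beside -0.05 for all genes tested, and 21 of the 31 differences were below 0, a number that ranged from 19 to 24 under the other scalings, beside 60.5% of all genes tested.

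**Figure D1:**
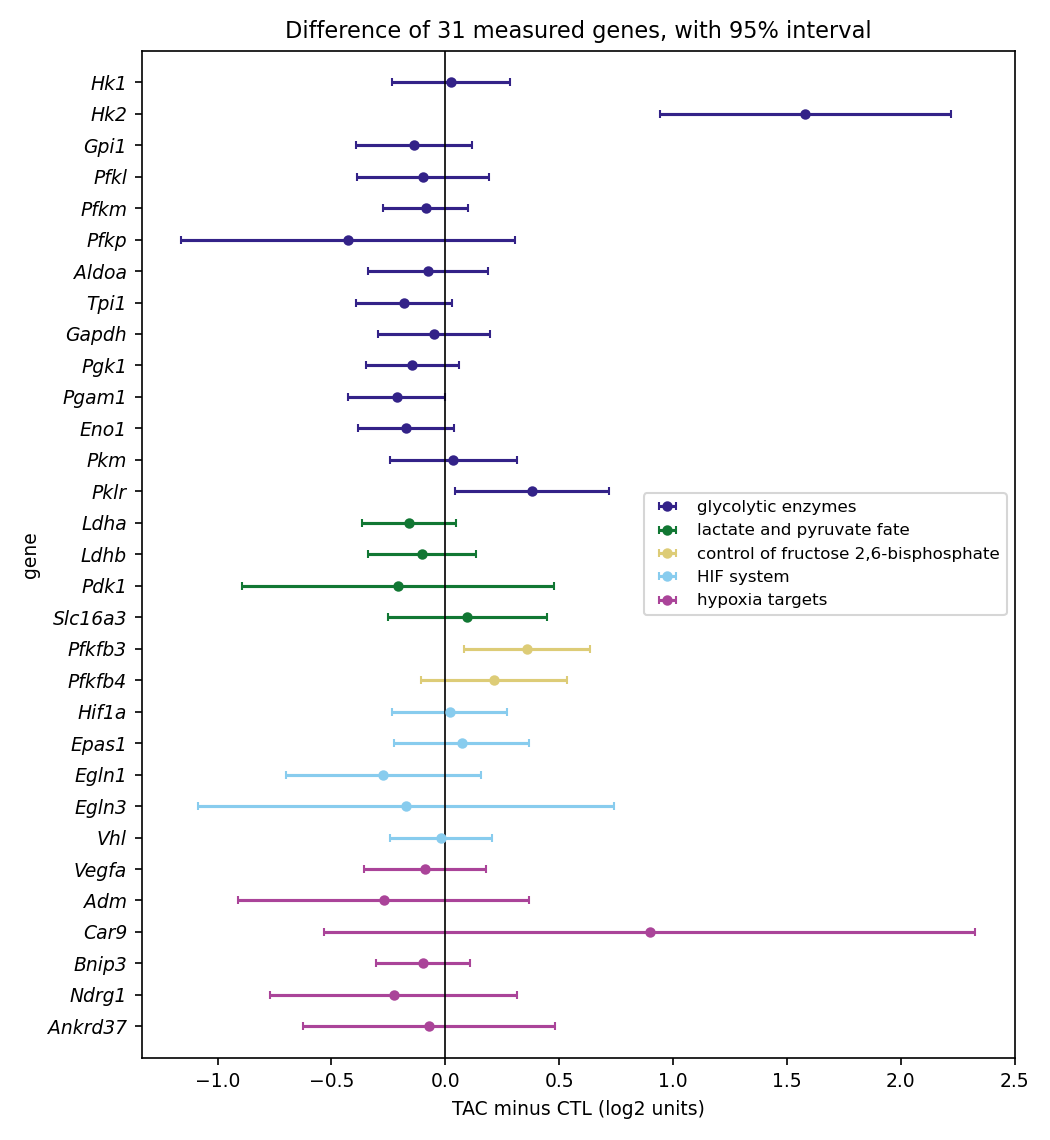
Difference between tacrolimus and control kidneys (TAC minus CTL, log2 units, horizontal axis) for the 31 measured genes, ordered by role, with points for the limma estimate and bars for its 95% interval. Hk2 stands at 1.58 with an interval from 0.94 to 2.22, while the intervals of 27 genes lie between -1 and 1.

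The intervals show how large a difference these arrays allow. For 27 of the 31 genes the 95% interval lay within -1 and 1, that is, within a doubling or halving, as it did for 86.1% of all genes tested. For 19 it lay within -0.5 and 0.5, as for 50.5% of all genes. The 4 genes whose interval reached outside -1 and 1 were Hk2 and Car9, beyond a doubling, and Egln3 and Pfkp, beyond a halving.

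Hexokinases trap glucose in the cell by phosphorylation. Hk2, the inducible hexokinase that docks on mitochondria and is typical of muscle, fat and proliferating cells, showed the largest difference among the 31 genes. Its level on control arrays 1 to 4 was -4.49, -4.47, -5.08 and -5.15, and on tacrolimus arrays 1 to 4 it was -3.37, -3.15, -3.80 and -2.55. Every tacrolimus array lay above every control array, with TAC 4 the highest and TAC 3 the nearest to the controls. Means were -4.80 ± 0.37 and -3.22 ± 0.52 (SD, n = 4 per group). The difference was 1.58 (SE 0.28), a 2.99-fold higher signal, with an adjusted p of 0.0584 in limma, just outside the threshold. Hk2 has 1 probe, at chr6:82675056-82675115 (mm9, per the annotation in the files), and it was well above background on all 8 arrays. It was the dimmest of the 31 on control arrays. The lowest probe levels well above background there were -7.29, -6.01, -5.84 and -6.08 on CTL 1 to 4.

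The Hk2 call depended on the processing, and its direction did not. The difference was above 0 under each of the 21 alternatives, from 0.75 to 1.78, with adjusted p-values from 0.039 to 0.567 (limma), and 4 alternatives brought it under 0.05. With normexp background correction, which adds an offset that compresses dim probes, it was 0.79 after scaling to the 75th percentile (adjusted p = 0.0404) and 0.75 after quantile normalization (adjusted p = 0.0893). Without TAC 4 it was 1.36 with an adjusted p of 0.0828. With the deposited table, from which no background was removed, it was 1.02 (unadjusted p = 0.000868, limma).

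Markers of several other cell populations differed between the groups as well. Of 6 tested adipocyte markers 5 were higher under tacrolimus at an unadjusted p under 0.05. The log2 of the summed level of all 6 ran from 3.41 to 3.89 on control arrays and from 3.46 to 5.49 on tacrolimus arrays. That sum was mostly Fabp4, the marker that did not differ by that p (0.23, unadjusted p = 0.461, limma). Its control mean was 3.65, while those of the 5 higher markers lay from -7.86 (Plin1) to -3.74 (Cfd). Plin1, which coats the fat droplet, was well above background on 0 of 4 control arrays, and Adipoq, the adipokine, on 1. Averaged over the list as a difference from the control mean, adipocyte markers stood at 2.19 on CTL 2 and -0.47, -0.84 and -0.88 on the other controls, and at 2.93, 2.09, 2.20 and 5.38 on TAC 1 to 4, so that Hk2 and these markers were both highest on TAC 4. CTL 2, with adipocyte markers in the range of the tacrolimus arrays, had an Hk2 level of -4.47, next to CTL 1 at -4.49. A covariate was built as the mean level of Adipoq, Plin1, Cidec, Cfd and Retn, the same 5 markers that were higher under tacrolimus, without Fabp4. With these adipocyte markers as a covariate, here and below, the Hk2 difference was 0.835 (unadjusted p = 0.0325, adjusted p = 0.567, limma). In that fit 0 of the 25127 genes passed the adjusted threshold. At an unadjusted p under 0.05, 1089 genes had a higher and 1097 a lower signal. The covariate ran from -6.80 to -3.09 on control and from -3.17 to 0.52 on tacrolimus arrays. It thus largely follows the groups, and the fit can hardly tell it apart from treatment. The part of adipocytes in the Hk2 difference was not tested. Without CTL 2 and TAC 4 together the Hk2 difference was 1.47 (adjusted p = 0.123, limma).

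Of 8 macrophage markers 7 were higher at an unadjusted p under 0.05, with the log2 of the summed level from 5.19 to 5.66 on control and from 5.64 to 6.58 on tacrolimus arrays. Csf1r, the marker that did not differ (0.06, unadjusted p = 0.585, limma), had the highest control mean, 4.90, and weighed most in that sum on control arrays. All 7 tested markers of proliferating cells were higher, at 0.44 to 1.24 and 1.77 to 2.33. Of 8 markers of interstitial fibroblasts and pericytes 6 were higher, at 5.58 to 5.87 and 5.84 to 6.29, while Nt5e was lower by that p (-0.62). Nt5e also had the highest control mean of these 8, 4.68, and weighed most in their sum on control arrays. Of 5 urothelial markers 1 was higher (Krt20), with a summed level of -1.01 to -0.72 on control and 0.15 to 2.47 on tacrolimus arrays. On TAC 2 and TAC 3 that sum was mostly Krt20 (0.73 and -0.60). Upk1a, Upk2, Upk3a and Krt5 lay within or below the control range on these arrays, and above it on TAC 1 and TAC 4. No marker of endothelium (0 of 8), red blood cells (0 of 5) or skeletal muscle (0 of 3 tested) differed at that p. The part of these 4 groups of cells in the Hk2 difference was not tested.

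The other hexokinases did not share one pattern. Hk1, the hexokinase present in most cells, was at 6.60, 6.89, 6.86 and 6.72 on control and 6.69, 6.62, 6.95 and 6.92 on tacrolimus arrays. The groups overlapped throughout, and the difference of 0.03 (95% interval -0.23 to 0.28) was below 0 under array-median scaling and under normexp correction with the 75th percentile, but above 0 under normexp correction with quantile normalization. Hk3, known from leukocytes, was not among the 32 genes: it was at -4.78, -5.01, -5.88 and -5.44 on control and -3.44, -3.38, -4.08 and -3.96 on tacrolimus arrays, without overlap and with 3 of 4 control arrays well above background. Its difference was 1.56 (adjusted p = 0.0553, limma). With the replicate block the adjusted p was 0.0238, and it was also under 0.05 with the deposited table, with an intensity trend, with array weights and with normexp correction and the 75th percentile. The difference was 0.57 in the last of these, 0.83 with the deposited table and 0.52 with normexp correction and quantile normalization (adjusted p = 0.0705). Hkdc1, a hexokinase-like gene, differed by 0.50 without overlap (adjusted p = 0.169).

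**Figure D2:**
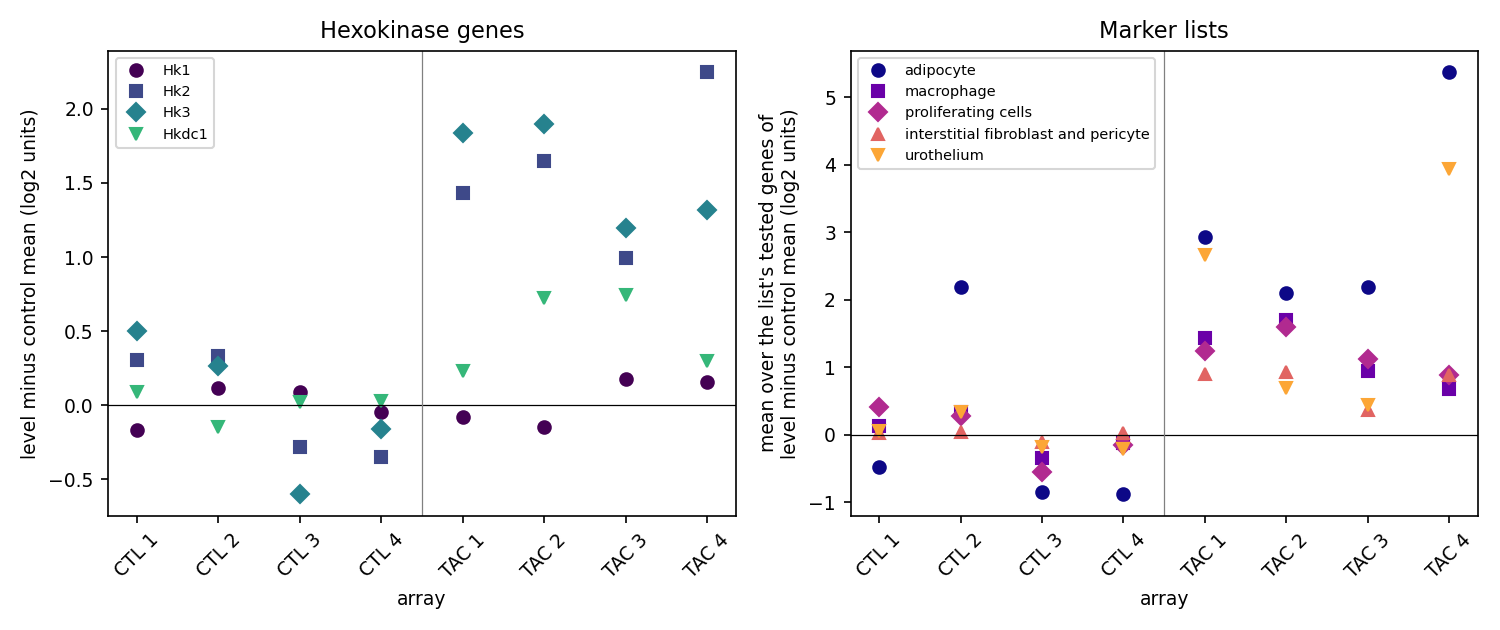
Level minus the control mean (log2 units, vertical axes) on each array for Hk1, Hk2, Hk3 and Hkdc1 (left) and, averaged over the tested genes of each list, for markers of 5 cell populations (right). Hk2 and Hk3 lie above all controls on the 4 tacrolimus arrays, and adipocyte markers reach 5.38 on TAC 4 and 2.19 on CTL 2.

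Phosphofructokinase commits the sugar to glycolysis. The Pfkfb enzymes make a fructose bisphosphate that switches it on, other than the one that phosphofructokinase itself makes. Pfkfb3, the family member with the strongest kinase activity, was at 0.71, 0.71, 0.64 and 0.63 on control and at 1.23, 0.81, 0.85 and 1.22 on tacrolimus arrays. The 4 controls lay within a narrow band, all tacrolimus arrays lay above it, and TAC 1 and TAC 4 were the highest. The difference was 0.36 (SE 0.12; unadjusted p = 0.0172, adjusted p = 0.230, limma), a 1.28-fold higher signal at the probe at chr2:11393453-11393512 (mm9). A dimmer Pfkfb3 probe differed by 0.23, with overlapping groups. With adipocyte markers as a covariate the difference was 0.145 (adjusted p = 0.790). The unadjusted p was 0.0518 with the array median (0.31) and 0.0677 without CTL 2 and TAC 4 (0.31).

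Pfkfb4, its relative found in testis and in hypoxic cells, differed by 0.21 (95% interval -0.11 to 0.53), with TAC 2 among the controls, and by 0.33 without TAC 2 (unadjusted p = 0.0253, limma). The subunits of phosphofructokinase itself, Pfkl of liver and Pfkm of muscle, differed by -0.10 and -0.09. Pfkp, the platelet subunit, was at 1.52, 1.38, 1.82 and 1.31 on control and 1.29, 0.04, 1.47 and 1.53 on tacrolimus arrays. TAC 2 alone was low, and the other 3 tacrolimus arrays lay near the controls. The second Pfkp probe was low on the same array, at -4.12 against -3.08, -2.48 and -3.08 on the other tacrolimus arrays. The difference of the brighter probe was -0.43 with a 95% interval from -1.16 to 0.31.

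The enzymes from hexose phosphate to pyruvate, which are among the most abundant transcripts of any tissue, shifted little. Gpi1, Aldoa, Tpi1, Gapdh, Pgk1, Pgam1 and Eno1 had differences between -0.21 and -0.05, all negative here, with Aldoa turning positive (0.02) under quantile normalization. Gapdh, often used as a reference gene, had 8 probes on the array, and their differences ranged from -0.17 to -0.05. Both probes of Pgk1, which makes the first ATP of the pathway, were lower by a like amount, -0.14 and -0.18. Gapdh and Eno1 have near-identical copies in the mouse genome, whose RNA their probes may also bind.

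Pgam1, the phosphoglycerate mutase of most tissues, was the 1 gene lower at an unadjusted p under 0.05. It was at 6.44, 6.41, 6.61 and 6.40 on control and at 6.25, 6.17, 6.40 and 6.18 on tacrolimus arrays. TAC 3 reached the level of CTL 4, and the other 3 tacrolimus arrays lay below all controls. The difference was -0.21 (unadjusted p = 0.0492, adjusted p = 0.322, limma) at chr19:41992898-41992957 (mm9). It kept an unadjusted p under 0.05 in 8 of the 21 alternatives. With 1 array left out it did so only without TAC 3 (-0.26), and it was -0.15 with quantile normalization.

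The counts for these enzymes moved with the scaling and with single arrays. TAC 3 was the highest of the 4 tacrolimus arrays for 15 of the 31 genes, a larger share than the 29.6% over all genes. TAC 2 was the lowest of them for 12 of the 31, a larger share than the 24.9% over all genes. TAC 3 also had the lowest 75th percentile, 674 intensity units. Without TAC 3, 8 of the 31 genes had groups that did not overlap, of which 6 were lower: Pfkm, Tpi1, Pgk1, Pgam1, Eno1 and Ldha. Over all genes 18.3% did not overlap without TAC 3, and 11.7% were lower without overlap. Centring each array on its median gave the same 6, where 9.69% of all genes were lower without overlap, and an unadjusted p under 0.05 for 3 of them, Tpi1, Pgam1 and Eno1, where 14.1% of all genes were lower by that p. That scaling lowered differences over the whole array: 28.5% of the genes at an unadjusted p under 0.05 were higher under it, against 45.5% with the 75th percentile, and the median of all genes went from -0.05 to -0.11. Without CTL 4, 5 genes did not overlap, 3 of them lower, beside 19.2% and 12.9% of all genes.

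The last step of glycolysis has 2 genes. Pkm, whose isoforms serve most cells, differed by 0.04 (95% interval -0.24 to 0.32), below 0 under array-median scaling. Pklr, the pyruvate kinase of liver, red cells and proximal tubule, was at -2.18, -2.65, -2.76 and -2.41 on control and -2.25, -2.15, -1.87 and -2.21 on tacrolimus arrays. CTL 1 lay within the tacrolimus range and the other 3 controls below it. The difference was 0.38 (95% interval 0.04 to 0.72; unadjusted p = 0.0321, adjusted p = 0.283, limma). It stayed above 0 under all 21 alternatives and kept an unadjusted p under 0.05 in 14 of them. The p was above 0.05 with the replicate block (unadjusted p = 0.0765, limma), with adipocyte markers as a covariate (0.55, unadjusted p = 0.0539), without CTL 2, CTL 3, TAC 2 or TAC 3, and without CTL 2 and TAC 4 together. Without CTL 1 it was 0.49. Its probe is placed at chr3:88948907-88949425 (mm9), a stretch of 519 bases and so longer than the probe.

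**Figure D3:**
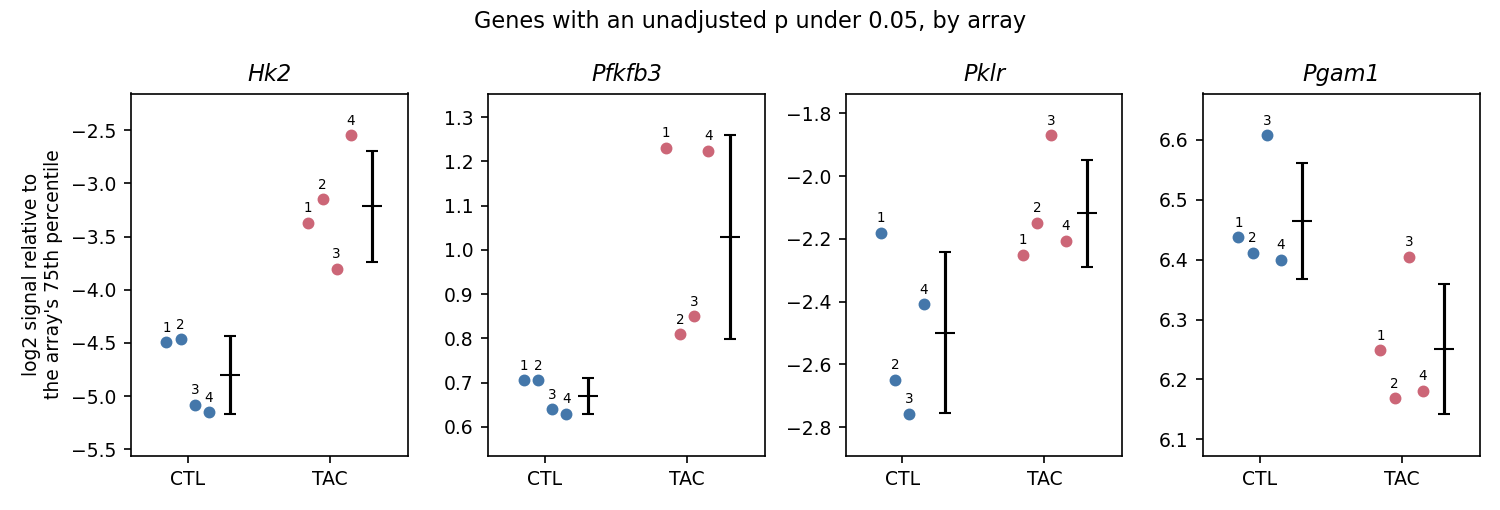
Level on each array (log2 signal relative to the array's 75th percentile, numbered by replicate) of the 4 genes with an unadjusted p under 0.05, with the group mean and SD as black bars and a separate vertical scale for each gene. The groups do not overlap for Hk2 and Pfkfb3, and overlap at CTL 1 for Pklr and at TAC 3 for Pgam1.

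Pyruvate becomes lactate through lactate dehydrogenase or enters mitochondria through pyruvate dehydrogenase, which Pdk1 switches off. Ldha, the subunit that favours lactate, differed by -0.16, and its other probes by -0.13 and -0.26. Ldhb, the subunit typical of heart, differed by -0.10. Pdk1 differed by -0.21 with an interval from -0.89 to 0.48, and its levels spread widely among the controls, from -2.36 on CTL 2 to -1.05 on CTL 1. Slc16a3, which exports lactate, differed by 0.10 (95% interval -0.25 to 0.44), and by -0.01 at its other probe. None of the 4 had an unadjusted p under 0.05, and all had overlapping groups.

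No gene of the HIF system among the 32 differed at an unadjusted p under 0.05 with all 8 arrays. Hif1a, the alpha subunit of most cells, was at 0.67, 0.67, 0.38 and 0.77 on control and 0.76, 0.58, 0.51 and 0.71 on tacrolimus arrays. The groups covered the same range, and the difference of 0.02 had a 95% interval from -0.23 to 0.27, and changed sign under array-median scaling. Epas1, the alpha subunit of endothelial and interstitial cells and the one that drives Epo, differed by 0.07 (95% interval -0.22 to 0.37), and its 2 dimmer probes by -0.21 and -0.06.

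The proteins that mark HIF for destruction also had overlapping groups. Egln1, the main oxygen sensor, differed by -0.27 (95% interval -0.70 to 0.15), and by -0.42 without TAC 3 (unadjusted p = 0.0274, adjusted p = 0.240, limma). Vhl, the receptor of the ubiquitin ligase, differed by -0.02, above 0 under quantile normalization. Egln3, a hydroxylase that HIF itself induces, was at -1.39, -1.45, -0.46 and -0.36 on control and -0.27, -1.23, -1.99 and -0.85 on tacrolimus arrays. The groups covered one wide range, with TAC 1 the highest and TAC 3 the lowest of all 8. The second Egln3 probe gave the same extremes, -1.91 on TAC 1 and -3.43 on TAC 3, so that the spread between arrays was seen at both probes. The difference was -0.17 with a 95% interval from -1.09 to 0.74.

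Targets of HIF outside glycolysis also overlapped between the groups, in all 6 genes tested. Vegfa, the growth factor of capillaries made by podocytes and tubules, was at 3.53, 3.50, 3.39 and 3.56 on control and 3.43, 3.62, 3.45 and 3.11 on tacrolimus arrays. Only TAC 4 stood below the controls, and the difference was -0.09 (95% interval -0.36 to 0.18). Bnip3, which promotes removal of mitochondria, differed by -0.10, Ndrg1, a stress-response gene, by -0.23, and Ankrd37, a short ankyrin protein, by -0.07. With adipocyte markers as a covariate the Ankrd37 difference was -0.69 (unadjusted p = 0.0456, adjusted p = 0.573, limma). Adm, the vasodilator adrenomedullin, differed by -0.27, with TAC 1 at -0.81 and TAC 2 at -0.03 below all controls and TAC 3 at 0.65 above them. Without TAC 1 the Adm difference was 0.004.

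Car9, a membrane carbonic anhydrase known as a marker of hypoxic tumours, varied most among the 31 genes, with a pooled SD of 1.04. It was at 0.65, -1.35, -1.41 and 0.20 on control and 0.54, 1.24, 0.94 and -1.05 on tacrolimus arrays. High and low arrays occurred in both groups: TAC 2, TAC 3, CTL 1 and TAC 1 were high, and CTL 2, CTL 3 and TAC 4 low. The difference was 0.90 with a 95% interval from -0.53 to 2.33 (adjusted p = 0.503, limma). It was 1.39 without TAC 4 (unadjusted p = 0.0369, adjusted p = 0.327, limma). With adipocyte markers as a covariate it was 2.53 (unadjusted p = 0.01, adjusted p = 0.483). CTL 2 and TAC 4, both low for Car9, were the arrays with the highest adipocyte markers of their groups. CTL 3, the lowest for Car9, stood at -0.84 for adipocyte markers, and TAC 1, high for Car9, at 2.93. The part of adipocytes in the Car9 difference was not tested.

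**Figure D4:**
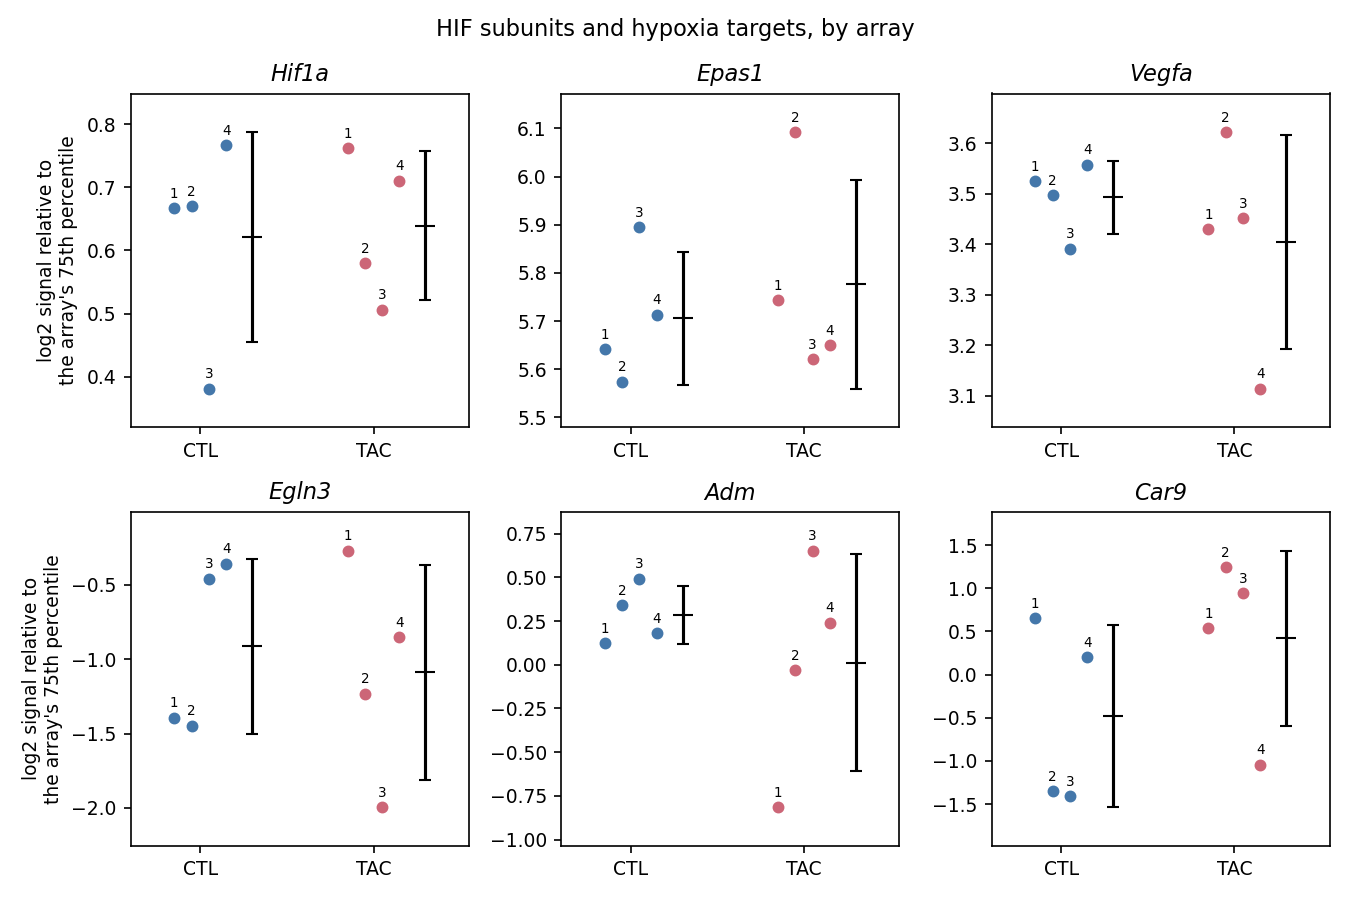
Level on each array (log2 signal relative to the array's 75th percentile, numbered by replicate) of the HIF subunits Hif1a and Epas1, the hydroxylase Egln3 and 3 HIF targets, with the group mean and SD as black bars and a separate vertical scale for each gene. The groups overlap for all 6, and Car9 runs from -1.41 to 1.24.

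Other genes of these pathways came from lists written with earlier results of the data known. By the unadjusted p, 7.04% of all genes tested were higher and 8.42% lower. Of 25 further genes of glycolysis and pyruvate use, 4 were higher and 3 were lower by the unadjusted p, none passed the adjusted threshold, and their median was -0.05. Besides Hk3 and Hkdc1, the lowest p-values were those of Slc16a1, a lactate and pyruvate carrier (-0.34, no overlap), and Pdk3, a pyruvate dehydrogenase kinase (-0.36). Of 16 further genes of the HIF system, 1 was higher, none was lower, and the median was -0.12. That gene was Hif3a, an alpha subunit without the usual activation domain, at 0.91 (adjusted p = 0.244, limma), 0.25 where the mean of its probes was used, and 1.83 with adipocyte markers as a covariate (adjusted p = 0.288). The next were Cited2, which competes with HIF for its coactivator (-0.50), Siah2, a ubiquitin ligase for Egln proteins (-0.28), and Arnt2, a beta subunit (0.29).

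Of 38 further HIF targets 37 were tested. By the unadjusted p 4 were higher (7.04% of all genes) and 1 was lower (8.42%), with none past the adjusted threshold and a median of 0.01. Among the higher genes, Stc2, a secreted glycoprotein, differed by 0.91 without overlap, Lox, which crosslinks collagen, by 0.98 with 2 of 4 control arrays well above background (0.27 and 0.21 with the normexp corrections, 0.37 with the deposited table), and Tmem45a by 0.82. The lower gene was Hmox1, haem oxygenase, at -0.42. Slc2a1, the glucose transporter of most cells and a standard HIF target, differed by 0.02 (adjusted p = 0.959). Lox is also made by fibroblasts, whose markers were higher in the same arrays as given above, and the part of these cells in its difference was not tested.

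**Figure D5:**
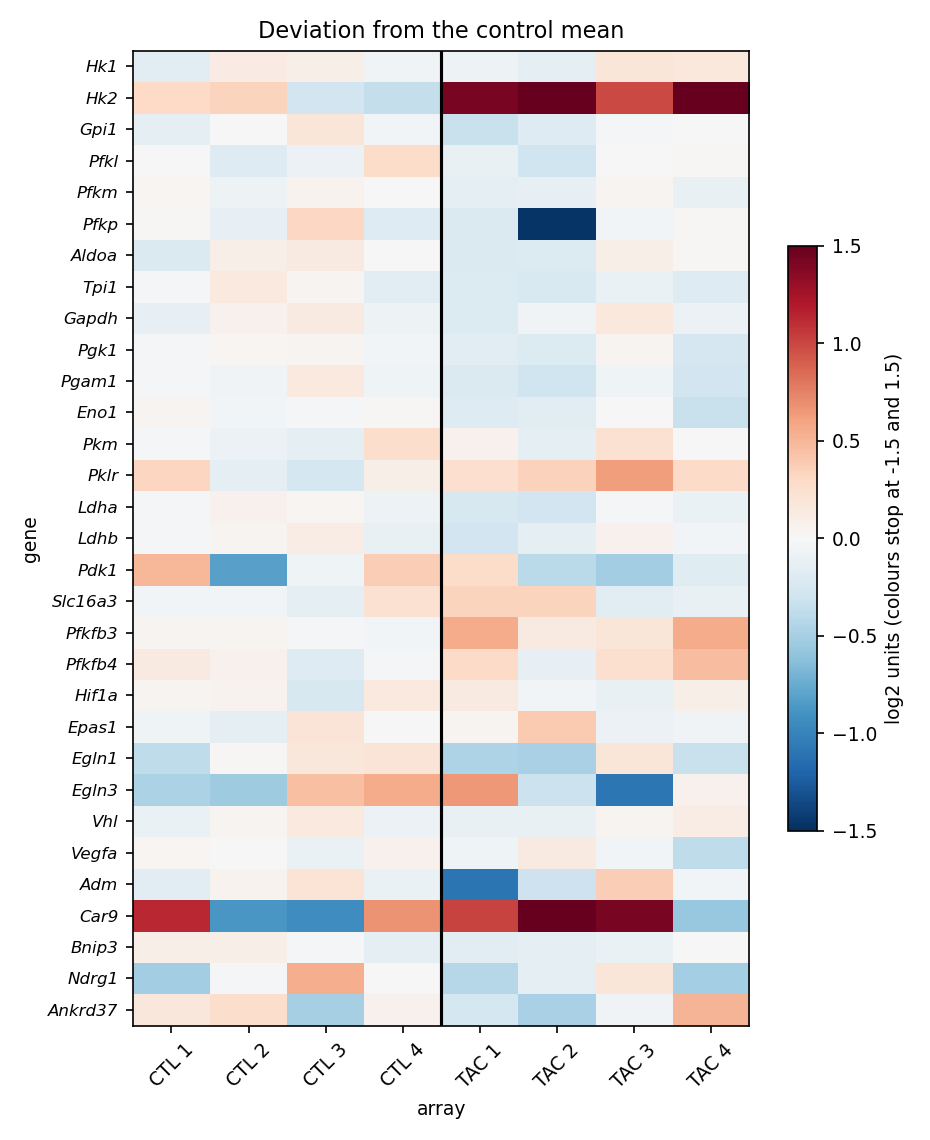
Deviation of each of the 31 genes from its control mean (log2 units, colour, ending at -1.5 and 1.5) on the 4 control and 4 tacrolimus arrays. Hk2 is high on all 4 tacrolimus arrays, Car9 is high or low on single arrays of both groups, and Pfkp is low on TAC 2 alone.

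Averaged by role as a difference from the control mean, the 14 glycolytic enzymes stood between -0.02 and 0.03 on the control arrays and at -0.02, -0.11, 0.15 and 0.11 on TAC 1 to 4, which includes Hk2. The 4 genes of pyruvate and lactate stood between -0.19 and 0.10 on control and at 0.02, -0.13, -0.16 and -0.11 on tacrolimus arrays. The 2 regulators of phosphofructokinase stood between -0.11 and 0.09 on control and at 0.42, 0.01, 0.21 and 0.51 on tacrolimus arrays, with TAC 2 within the control range. The 6 HIF targets stood between -0.13 and 0.12 on control and at -0.17, 0.13, 0.30 and -0.16 on tacrolimus arrays. The 5 genes of the HIF system stood between -0.20 and 0.16 on control and between -0.21 and 0.05 on tacrolimus arrays. The tacrolimus arrays lay on both sides of 0 in all roles but the regulators of phosphofructokinase, where all 4 were above it.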

How the data were processed

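Total RNA of 8 kidney samples (0.2 ug each, RIN 9, per the labels) was labelled with Cy3. Per the file headers, the authors read spots with Feature Extraction 10.7.3.1, giving raw, background and processed (background-subtracted, detrended) intensity, unscaled between arrays. The deposited table holds log2 values: each matches, within 5e-09, the raw median intensity after quantile normalization and log2, with no background removed. The submitters' processing notes name limma without settings.

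Values here are log2 processed intensity minus the array's 75th percentile over 59305 non-control spots. The 3671 control features and 147 to 194 outlier spots an array were dropped, and a probe's spots averaged. A probe was tested if well above background on at least 4 of 8 arrays, and the brightest probe stood for its gene (25127 genes and transcripts). RefSeq accessions matched 28026 probes and renamed 1651. The test was limma 3.58.1 under R 4.3.3 (two-sided, lmFit then eBayes, with p-values adjusted by Benjamini-Hochberg over the whole table and called under 0.05), tested on simulated data. All arrays lay on 1 slide, so no slide batch could be tested. The alternatives changed the scaling, background correction (normexp, offset 50), source table, filter, probe rule, variance model, weights, replicate block, adipocyte covariate and arrays left out. The 32 genes, the lists and the alternatives were chosen with earlier results of these data known. All 32 genes were named, in full where the unadjusted p was under 0.05 or groups did not overlap. Of other pathway lists, up to 4 genes with the lowest p were named, and Slc2a1 and Hmox1 were added after their values were seen. A few genes within the counts are not reported here by name.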

Additional observations from a re-analysis of the deposited data

Results flagged for a closer look

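Among 64 groups of 4 arrays examined (32 genes in 2 groups), 1 array stood apart from the other 3 of its group beyond Dixon's critical value at the 95% level. Pfkp, the platelet subunit of phosphofructokinase, was at 0.0354 on TAC 2, while the other 3 tacrolimus arrays lay between 1.29 and 1.53, and the gap was 0.84 of the group's range. Chance alone places about 5% of such groups beyond that value.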

How the results depend on the processing

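Hk2, Pfkfb3 and Pklr kept a difference above 0 and Pgam1 one below 0 under all 21 alternatives. The cause of each change given here was not tested. The count of the 31 genes past the adjusted threshold, 0, became 1 (Hk2) with normexp and the 75th percentile, with a filter on all 8 arrays, with an intensity trend and robust estimation, and with array weights. The count higher at an unadjusted p under 0.05, 3, became 1 without CTL 2 and TAC 4, and ranged from 2 to 4 with each array left out. The count lower, 1, became 0 with quantile normalization, normexp and quantile, the deposited table, no filter, and without CTL 2 and TAC 4, became 3 with the array median and with array weights, and ranged from 0 to 4 with each array left out. The count without overlap, 2, became 8 with the array median and 1 with the mean of probes, and ranged from 2 to 8 with each array left out. Over all genes 12.9% did not overlap with the array median, beside 4.35% above and 5.75% below in the main fit. The count lower over all genes, 2116, became 3553 with the array median, 2723 with array weights and 1176 without CTL 2 and TAC 4. It was 2217 to 2321 with quantile normalization, normexp and quantile, the deposited table and no filter. The count higher over all genes, 1769, became 1586 without CTL 2 and TAC 4. The median difference over tested members of the set, -0.0883, became -0.0287 with quantile normalization, -0.140 with the array median, -0.0338 with normexp and quantile and -0.0347 with the deposited table, and ranged from -0.110 to -0.0393 with each array left out. Over all genes, 57 calls became 285 with normexp and the 75th percentile, 131 with normexp and quantile, 180 with the deposited table, 32 with no filter, 151 with a filter on all 8 arrays, 221 with trend and robust estimation, 309 with array weights, 0 with the adipocyte covariate, and 7 to 56 with each array left out.

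Signs turned only among genes with an unadjusted p above 0.05. With quantile normalization, Aldoa was 0.024 and Vhl 0.021; with normexp and quantile, 0.015 and 0.004; with the deposited table, 0.027 and 0.014. With the array median, Hk1 was -0.026, Pkm -0.016 and Hif1a -0.033; with normexp and the 75th percentile, Hk1 was -0.017. With the mean of probes, Hif1a was -0.059 and Epas1 -0.065. With array weights, Hk1 was -0.038 and Egln3 0.061. With the adipocyte covariate, Hk1 was -0.132, Pdk1 0.251, Pfkfb4 -0.055, Hif1a -0.092, Vegfa 0.122 and Ndrg1 0.071. Without CTL 2 and TAC 4, Vegfa was 0.010. With each array left out, ranges crossing 0 were -0.029 to 0.083 (Hk1), -0.266 to 0.065 (Ankrd37), -0.027 to 0.125 (Pkm), -0.062 to 0.067 (Hif1a), -0.061 to 0.031 (Vhl), -0.446 to 0.129 (Egln3), -0.118 to 0.003 (Gapdh), -0.485 to 0.004 (Adm), -0.034 to 0.134 (Epas1) and -0.161 to 0.009 (Vegfa).

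The labels do not say whether the shared replicate numbers pair the arrays. Deviations from the group means correlated weakly, at 0.156, 0.021, 0.143 and 0.055 for numbers 1 to 4. Each control correlated best with the tacrolimus array of its own number. TAC 1, TAC 3 and TAC 4 correlated best with the control of their own number, while TAC 2 correlated best with CTL 1. Arrays of 1 number also share a slide column. With the replicate block, 103 genes were called, 0 of them among the 31 (Hk3, outside the 31, was called), where the unadjusted p counted 2 as higher and 1 as lower.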
